A study of Homo sapiens with 2 samples.

Results

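The regions described here are the enriched peaks of a RIP-seq experiment in Huh-7 cells that lay inside a transcript and ran across at least 2 of its exons. Each deposited peak was given to whichever gene of its strand it shared most exonic bases with, exons were merged over the isoforms of a gene, and a peak was kept when the centre of its exonic bases fell in neither the first nor the last merged exon and the peak touched 2 or more merged exons. By this rule 3449 of the 7643 deposited peaks were members, which is 45.1%, and they lay in 1778 host genes. The remaining peaks were 2183 internal peaks within 1 exon, 1353 centred in a last exon, 548 centred in a first exon and 110 in genes of 1 exon. The rule used positions, and IP reads only where a peak shared equally many exonic bases with several genes, as 52 members did. The fold and the p-value of a peak were not part of the choice. Folds, p-values and false discovery rates of peaks are the values the authors deposited, and they describe 1 IP against 1 input.

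Huh-7 is an established human hepatocellular carcinoma line, and per the labels the cells were wild type and untreated. The study compared 1 immunoprecipitated library (the IP) with 1 input library, made from 90% and 10% of a lysate, with 5897293 and 2782045 gene reads recovered from the deposited values. With 1 library per group there is no replicate check, no test between conditions, and every interval below covers counting error only. The labels disagree on the antibody: the design text names SRSF7, the treatment label of the IP reads SPSF7, and the sample protocol names YTHDF2 and poly(A) selection ahead of the IP, so the libraries are called the IP and the input.

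In RIP-seq, RNA that is pulled down with a protein is sequenced next to total lysate RNA, and a peak is a stretch where the IP holds more reads than the input. SRSF7 is a member of the SR protein family, which bind exonic sequences through an RNA recognition motif, help to define exons during splicing and, for shuttling members such as SRSF7 and SRSF3, accompany mRNA to the cytoplasm. YTHDF2 is a cytoplasmic reader of N6-methyladenosine that recruits deadenylases to its targets. In a spliced mRNA the exons are contiguous, so a stretch that is unbroken in the RNA appears in genome coordinates as blocks of exon separated by introns.

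The genomic span of a member peak therefore holds introns whose sequence is no part of the measured exonic bases. Intronic microRNA genes make this visible: 25 hairpins lay inside the genomic spans of 24 member peaks, 24 of them in introns and 1 in an exon. Mature sequences of 5 of them are shown, chosen because they show each kind of position: a pair with a shared seed in 1 intron, a well known intronic microRNA, a hairpin that fills its intron, and the exonic case. Capitals mark the seed, bases 2 to 8, and sequences and positions are those of RefSeq for GRCh38.p14.
hsa-let-7f-5p: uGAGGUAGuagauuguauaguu
hsa-miR-98-5p: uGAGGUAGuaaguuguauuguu
hsa-miR-33a-5p: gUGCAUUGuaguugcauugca
hsa-miR-1226-3p: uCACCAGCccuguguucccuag
hsa-miR-943: cUGACUGUugccguccuccag

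The first pair shares the seed GAGGUAG and comes from 1 intron of HUWE1, at chrX:53557246-53557267 and chrX:53556299-53556320 on the minus strand. That intron is 2461 bases long and was spanned by a HUWE1 peak over merged exons 59 to 63, with 451 exonic bases, a deposited fold of 2.98 and a p-value of 1.41e-11. hsa-miR-33a-5p lies at chr22:41900949-41900969 on the plus strand in an intron of 2471 bases of SREBF2, the transcription factor of cholesterol synthesis genes, whose peak had a fold of 3.38 (p-value 0.0229). The hairpin of hsa-miR-1226-3p, whose mature form is at chr3:47849608-47849629 on the plus strand, filled to within 10 bases an intron of 75 bases of DHX30, an RNA helicase, in a peak with a fold of 2.73 (p-value 0.0301). A second hairpin, MIR6802, filled an intron of 74 bases of PPP6R1 in the same sense. hsa-miR-943, at chr4:1986403-1986423 on the minus strand, lies in an exon of NELFA, a subunit of the negative elongation factor, and its gene entry held 36 IP and 3 input reads. The libraries were made from products of 200 to 500 base pairs, so these reads are those of longer RNA over the locus and not of mature microRNAs.

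Most members joined 2 neighbouring exons. Of the 3449 members, 1889 (54.8%) touched 2 merged exons, 853 (24.7%) touched 3 and 360 (10.4%) touched 4, while 347 (10.1%) touched 5 or more and 20 (0.580%) touched 10 or more. The median member held 226 exonic bases (quartiles 126 and 451, range 26 to 8376) in a genomic span of 2321 bases (range 72 to 233239), so that exonic sequence made up a median of 11.9% of the span. Together the members crossed 6446 boundaries between merged exons and covered 3055 merged exons from end to end, and 1588 members (46.0%) held at least 1 whole merged exon. These counts rest on the merged annotation and not on spliced reads, and the smallest gap crossed was 1 base. The longest intron inside a member had a median of 1562 bases and reached 193659 bases, and 343 members (9.94%) ran across an intron of more than 10000 bases.

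At the edge of the rule, 467 members (13.5%) reached into 1 of their exons by fewer than 10 bases and 1268 (36.8%) by fewer than 25 bases. Exonic lengths fell on a grid: 2464 members (71.4%) and 2047 internal peaks of 1 exon (93.8%) had a length of 1 more than a multiple of 25 bases, so an overlap under 25 bases is under that step. Only 123 members (3.57%) also touched the first merged exon and 213 (6.18%) the last. RefSeq lists the host gene as protein coding for 3419 members (99.1%).

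**Figure D1:**
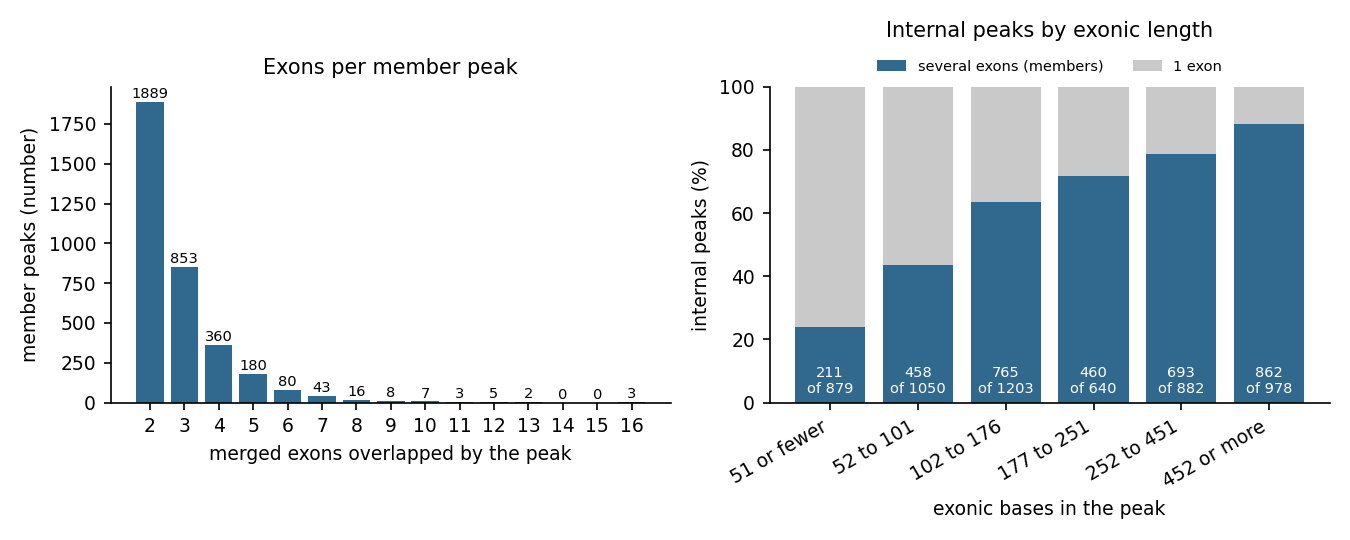
Left, the number of member peaks (vertical axis) by the number of merged exons each overlapped (horizontal axis). Right, internal peaks by exonic bases (horizontal axis) and the percentage that were members (blue) or lay in 1 exon (grey), with the member count and the total printed in each bar. Members fall from 1889 with 2 exons to 3 with 16 exons, and their share of internal peaks rises from 211 of 879 in the shortest bin to 88.1% in the longest. That rise follows in part from the rule, since a longer peak more easily touches another exon.

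Members differed from internal peaks of 1 exon in length and, with length not matched, in p-value, and little in fold. No test of these differences was run. The median deposited fold was 2.67 in members (quartiles 2.34 and 3.43) and 2.63 in internal peaks of 1 exon, against 2.83 in first exons, 2.86 in last exons and 2.71 over all peaks. The median p-value was 0.00806 in members and 0.0141 in internal peaks of 1 exon. A false discovery rate of at most 0.05 was listed for 2266 members (65.7%) and 1212 internal peaks of 1 exon (55.5%), beside 60.3% of all peaks. The exonic length went with both: a median of 226 bases in members and 101 in internal peaks of 1 exon, of which 662 (30.3%) were exactly 51 bases long against 195 members (5.65%). A longer peak more easily touches another exon, so part of this length difference follows from the rule. All 7 peaks whose p-value is listed as 0 were members.

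The exon under the centre had a median of 185 bases in members and 672 in internal peaks of 1 exon. This follows in part from the rule, since a peak more easily stays within 1 exon when that exon is long. Within bins of exonic length the median fold of members was the lower one in all 6 bins. The gap was widest at 252 to 451 bases, with 2.75 in 693 members and 3.02 in 189 peaks of 1 exon. At 102 to 176 bases the median was 2.60 in 765 members and 2.66 in the peaks of 1 exon, at 177 to 251 bases it was 2.63 and 2.66, and at 452 bases or more it was 2.86 and 2.93. The share at a false discovery rate of at most 0.05 did not go 1 way over the bins. It was lower in members at 51 bases or fewer (48.3 against 52.7%), at 52 to 101 bases (52.6 against 53.5%) and at 252 to 451 bases (75.5 against 76.2%). It was higher in members at 102 to 176 bases (52.8 against 47.0%), at 177 to 251 bases (64.3 against 61.7%) and at 452 bases or more (81.2 against 70.7%). How much of the p-value difference comes from length was not tested.

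Inside genes the folds of members and of peaks of 1 exon differed little. In 732 genes that carried both internal classes, the median member fold was higher than that of the peaks of 1 exon in 358 genes, lower in 373 and equal in 1, with a median difference of -0.01 on the log2 scale. Length was not matched in this comparison, with a median of 250 exonic bases in members and 101 in peaks of 1 exon. The number of exons went with the fold: the median was 2.57 for members of 2 exons, 2.71 for 3, 2.81 for 4 and 2.91 for 5, while the median exonic length was 151, 301, 451 and 601 bases.

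Most member centres lay in the 5′ and middle parts of the merged exon length, with a profile shared by internal peaks of 1 exon. Counted along merged exons from the 5′ end, 778 centres (22.6%) fell between 0 and 20% of the length, 1010 (29.3%) between 20 and 40%, 892 (25.9%) between 40 and 60%, 589 (17.1%) between 60 and 80% and 180 (5.22%) beyond. Internal peaks of 1 exon had a near-equal profile, with 23.0, 30.1, 26.1, 16.9 and 3.99%. The rule leaves out peaks centred in last exons, which are often long. How much of the small last share comes from the rule was not tested.

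The members with the smallest p-values lay in abundant mRNAs. The highest exonic coverage was in MKI67, the Ki-67 antigen that coats mitotic chromosomes and marks proliferating cells. Its peak at chr10:128098608-128111802 on the minus strand took in merged exons 11 to 15 of 15, with 8376 exonic bases, of which 6845 were the whole of exon 13, and had a fold of 4.05. MKI67 as a gene stood at 271 RPKM in the IP and 55.8 in the input (20494 and 1993 reads), a ratio of 4.85 (95% interval 4.63 to 5.08). RPKM is the number of reads of a gene scaled by its merged exon length and by the reads of the library.

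SPTBN1, which encodes the beta-II spectrin of the membrane skeleton, carried a pair of such peaks end to end. The first, at chr2:54621496-54643034 on the plus strand, joined merged exons 11 to 22 of 41 with 3051 exonic bases and a fold of 3.51. The next, at chr2:54643109-54660127, joined exons 22 to 37 with 3667 exonic bases and a fold of 3.44. The gene level was 372 RPKM in the IP and 86.7 in the input, a ratio of 4.29 (4.16 to 4.43). The other spectrin subunit of the pair, SPTAN1, had a member over 16 exons, 25 to 40 of 62, at chr9:128587656-128609606 with a fold of 2.94 (p-value 4.30e-38), and stood at 82.2 and 24.9 RPKM (ratio 3.30, 3.10 to 3.52).

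NCL encodes nucleolin, an abundant nucleolar RNA-binding protein. Its top member, at chr2:231460226-231463688 on the minus strand, joined exons 4 to 9 of 16 with 1259 exonic bases at a fold of 3.29, and all 4 peaks of the gene were members. NCL had an IP level of 1793 RPKM and an input level of 463 RPKM (72102 and 8789 reads). Both levels are high and the ratio was 3.87 (3.79 to 3.96).

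The cytosolic and endoplasmic HSP90 chaperones were all among the 12 smallest p-values. HSP90B1, the endoplasmic reticulum form, had a peak at chr12:103946686-103953555 on the plus strand that joined exons 14 to 18 of 18 with 752 exonic bases and a fold of 2.84. HSP90AA1, the stress-inducible cytosolic form, had a peak at chr14:102084507-102085397 on the minus strand over exons 5 and 6 of 11 (592 exonic bases, fold 2.51). HSP90AB1, the constitutive cytosolic form, had a peak at chr6:44250427-44251075 on the plus strand over exons 8 and 9 of 14 (201 exonic bases, fold 2.25, p-value 3.29e-189). Their gene ratios were 2.65 (2.60 to 2.71), 2.72 (2.66 to 2.79) and 2.27 (2.21 to 2.33). Reads of near-identical HSP90 copies and pseudogenes could be split by the counting, and HSP90B1 shares exon bases with another gene on its strand, so these values are uncertain to that degree.

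PTMA, SFPQ and DBN1 completed the 12. PTMA encodes prothymosin alpha, a small acidic nuclear protein, and had a member over exons 6 to 8 of 8 at chr2:231711944-231712865 (335 exonic bases, fold 2.12) and another over exons 3 and 4 at chr2:231708627-231709856 (fold 2.62, p-value 2.52e-303). PTMA stood at 2567 RPKM in the IP and 1186 in the input, a ratio of 2.16 (2.12 to 2.21), and it shares exon bases with another gene. SFPQ, a paraspeckle and splicing protein, had a pair of members on the minus strand, over exons 7 to 10 at chr1:35184584-35188042 (fold 2.16) and exons 5 and 6 at chr1:35189004-35189302 (fold 2.15), with a gene ratio of 2.59. DBN1, the actin-binding protein drebrin, had a member over exons 7 to 10 of 15 at chr5:177462338-177467801 (766 exonic bases, fold 2.73, p-value 7.97e-167) and a ratio of 3.14 (3.00 to 3.30). Among these 12 peaks the fold ran from 2.12 to 4.05, so the smallest p-values did not go with the highest folds.

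Beside the spectrins, members over 12 or more exons lay in INCENP, CREBBP, BCR, SRRM1, BAZ2B, DOT1L and MPRIP, the last 3 with 12 exons each and fewer exonic bases than SRRM1. INCENP, a scaffold of the chromosomal passenger complex, had a member over 16 exons, 4 to 19 of 19, at chr11:62130350-62151892 on the plus strand (2178 exonic bases, fold 3.49, p-value 5.43e-113). Its gene level was 258 RPKM in the IP and 62.6 in the input, a ratio of 4.12 (3.82 to 4.44). CREBBP, a histone acetyltransferase and coactivator, had a member over 13 exons, 2 to 14 of 37, at chr16:3778037-3850483 on the minus strand, with a fold of 5.43 (p-value 1.90e-09) across an intron of 37224 bases. CREBBP stood at 30.2 and 5.11 RPKM, a ratio of 5.91 (5.15 to 6.81), and its 5 members had folds of 4.38 to 9.43. SRRM1, a serine and arginine rich splicing coactivator, had a member over 12 exons, 12 to 23 of 23, at chr1:24652435-24672381 (3396 exonic bases, fold 4.24, p-value 2.01e-80) and a gene ratio of 4.55 (4.19 to 4.95). BCR, a GTPase regulator and kinase, had a member over 13 exons at chr22:23284040-23311793 (fold 3.20, p-value 8.35e-07) at lower levels of 6.78 and 2.23 RPKM.

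Members were spread over many genes and piled up in a few long ones. Of the 1778 host genes, 1024 had 1 member and 375 had 2, while 117 had 5 or more and held 801 members (23.2%). Neighbouring peaks of a gene were separated by a median of 349 exonic bases where at least 1 of them was a member. In 402 of 3081 such pairs (13.0%) the gap was exactly 24 bases, which was also the smallest gap.

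HUWE1, a giant HECT-type ubiquitin ligase on the X chromosome, had the most members, 18 of its 25 peaks. They touched 54 of 86 merged exons (62.8%) and held 41.3% of the merged exonic bases. The widest by exons joined exons 28 to 34 at chrX:53593591-53604667 (851 exonic bases, fold 3.87, p-value 6.89e-07), and the smallest p-value, 9.16e-42, belonged to exons 52 to 57 at chrX:53561799-53565158 (fold 2.83). HUWE1 stood at 72.8 RPKM in the IP and 24.4 in the input, a ratio of 2.98 (2.81 to 3.17). Its member folds ran from 2.08 to 4.29, on both sides of the gene ratio.

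UBR4, a ubiquitin ligase of the N-degron pathway, had 17 members of 21 peaks at lower levels of 11.2 and 3.86 RPKM (1622 and 265 reads, ratio 2.89, 2.53 to 3.30). The widest joined 9 exons, 57 to 65, at chr1:19126521-19141669 on the minus strand (fold 4.76, p-value 1.06e-06). UBR4 member folds ran from 2.25 to 33.9, the widest range among the 6 genes with most members, and the gene shares exon bases with another gene.

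DYNC1H1, the heavy chain of cytoplasmic dynein, had 16 members of 24 peaks, which touched 42 of 56 merged exons. The last of them joined exons 54 to 56 at chr14:102042498-102050272 on the plus strand with 5404 exonic bases at a fold of 4.32 (p-value 8.77e-12). Its levels were 24.1 and 7.09 RPKM, a ratio of 3.39 (3.14 to 3.67). Of its 16 members 15 had a false discovery rate of at most 0.05, beside 65.7% of all members. In UBR4 it was 11 of 17, near the share over all members.

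DST and MACF1 encode spectraplakins, giant proteins that link actin to microtubules. DST had 16 members over 33 of 108 merged exons, covering 6.99% of merged bases, at 11.4 and 5.25 RPKM (ratio 2.18, 2.00 to 2.36). MACF1 had 13 members over 37 of 113 merged exons, covering 9.16%, at 9.81 and 4.03 RPKM (ratio 2.43, 2.21 to 2.69). Their members were sparse beside those of DYNC1H1.

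LRP1, an endocytic receptor for lipoprotein remnants and protease complexes, had 14 members of 25 peaks. Its member folds lay in the narrow range of 2.10 to 2.61. Of the 14 members 13 had a false discovery rate of at most 0.05, beside 65.7% of all members. LRP1 stood at 71.2 and 33.2 RPKM with 8753 and 1929 reads, a ratio of 2.14 (2.04 to 2.25). HUWE1 had nearly the same IP level and a higher ratio.

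**Figure D2:**
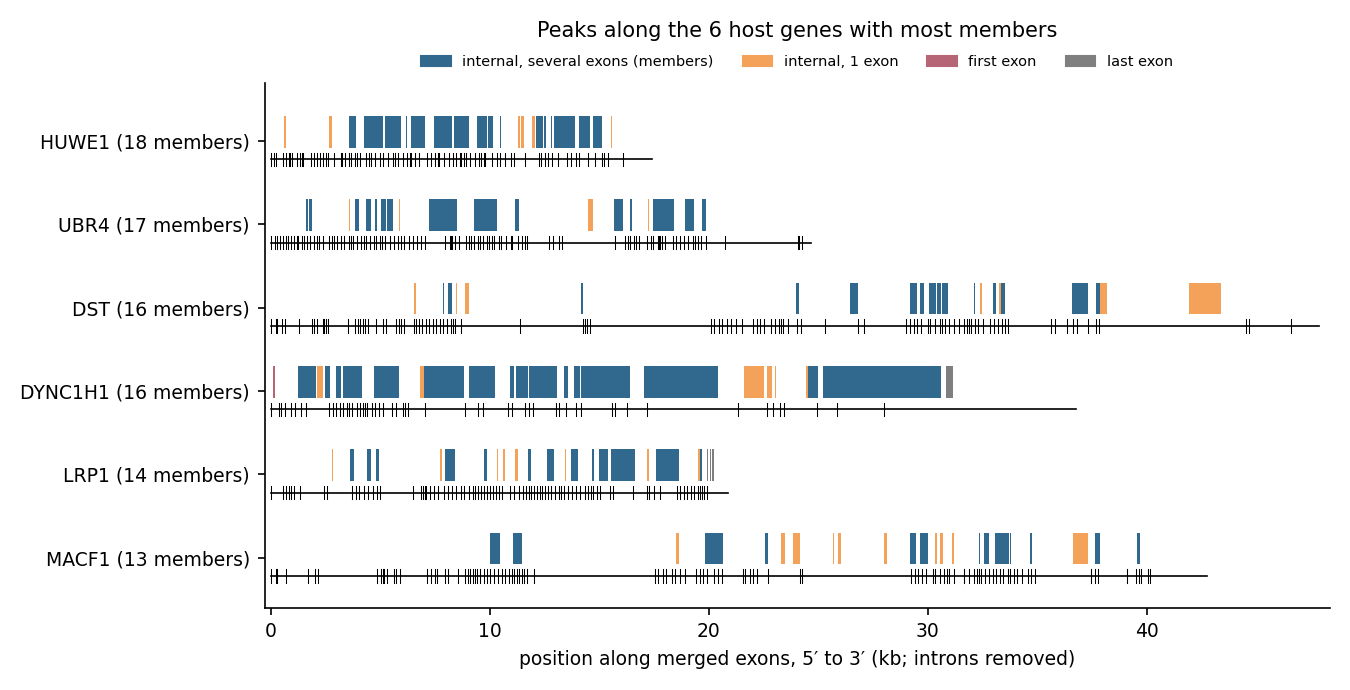
Peaks drawn along the merged exons of the 6 genes with most members, in kilobases from the 5′ end with introns removed, and ticks for exon boundaries. Blue blocks are members, orange blocks internal peaks of 1 exon, red first-exon and grey last-exon peaks. The 16 members of DYNC1H1 touch 42 of 56 exons and the 16 members of DST touch 33 of 108.

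The highest folds came with p-values in the middle of the members' range. In 83 members (2.41%) the deposited fold was above 20, against 146 internal peaks of 1 exon (6.69%) and 5.10% of all peaks. All 83 were whole multiples of 2.12 within 0.01, and 2.12 is also the ratio of IP to input reads. The peak table gives no reads per peak, so it is not known whether the input held any read there, and such a fold may have no measured input behind it. Their p-values lay between 0.00194 and 0.0147, and only 14 members had a fold from 10 to 20. Among members with a p-value at or below the median, the highest was in UTRN, the dystrophin homologue utrophin, at chr6:144285700-144330902 over exons 1 to 3 of 81 with a fold of 61.5 (p-value 0.00194). Next came ANKRD26 at 55.1, DOCK6 and MAP3K4 at 50.9, ARHGAP1 at 48.8, TOR1A at 46.6, LZTS2 at 44.5, DNMT3A and UBA1 at 42.4, and ANO8 at 40.3.

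The gene levels of these hosts were far below their peak folds. UTRN had a gene ratio of 2.47 (2.24 to 2.73). MAP3K4, a stress kinase, had 1.37 (1.06 to 1.78), DNMT3A, a de novo DNA methyltransferase, had 1.49 (1.27 to 1.75), and TOR1A, an ATPase of the endoplasmic reticulum lumen, had 1.18 (0.877 to 1.60), an interval that includes equal levels. The highest were LZTS2 at 4.87 (2.87 to 8.92, from 155 and 15 reads) and ANO8 at 3.66 (1.75 to 8.84, from 62 and 8 reads). A fold of this size in a member is therefore given here only as deposited.

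Host genes stood higher in the IP than all genes together, and so did genes whose peaks included no member. This is a description, since the peaks and the gene levels come from the same reads. A mean of at least 1 RPKM over the libraries was reached by 1764 of the 1778 host genes and 14057 genes in all. On the scale of log2 of (IP + 1) over (input + 1), the host genes had a median of 0.80 (quartiles 0.54 and 1.09) against 0.14 for all genes. Of the host genes, 550 were higher in the IP by 2-fold or more (31.2%) beside 11.3% of all genes, and 2 were lower by as much (0.113%) beside 8.25%. A host needs 3 or more merged exons. Over the 10773 such genes at this level the median was 0.15, with 8.40% higher and 4.43% lower. The 1249 genes with peaks but no member had a median of 0.57, with 13.9% higher and 3 lower by 2-fold or more. In the 117 genes with 5 or more members the median was 1.30 and 99 (84.6%) reached 2-fold higher, against 0.66 and 17.5% in the genes with 1 member. Scaled to protein-coding reads, the host median was 0.49 beside -0.17 for all genes, and 202 host genes (11.5%) were at least 2-fold higher beside 6.31% of all genes. The share of higher among all calls past 2-fold moved from 57.9% as deposited to 44.6% when centred on the median and 29.4% under the protein-coding scaling.

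**Figure D3:**
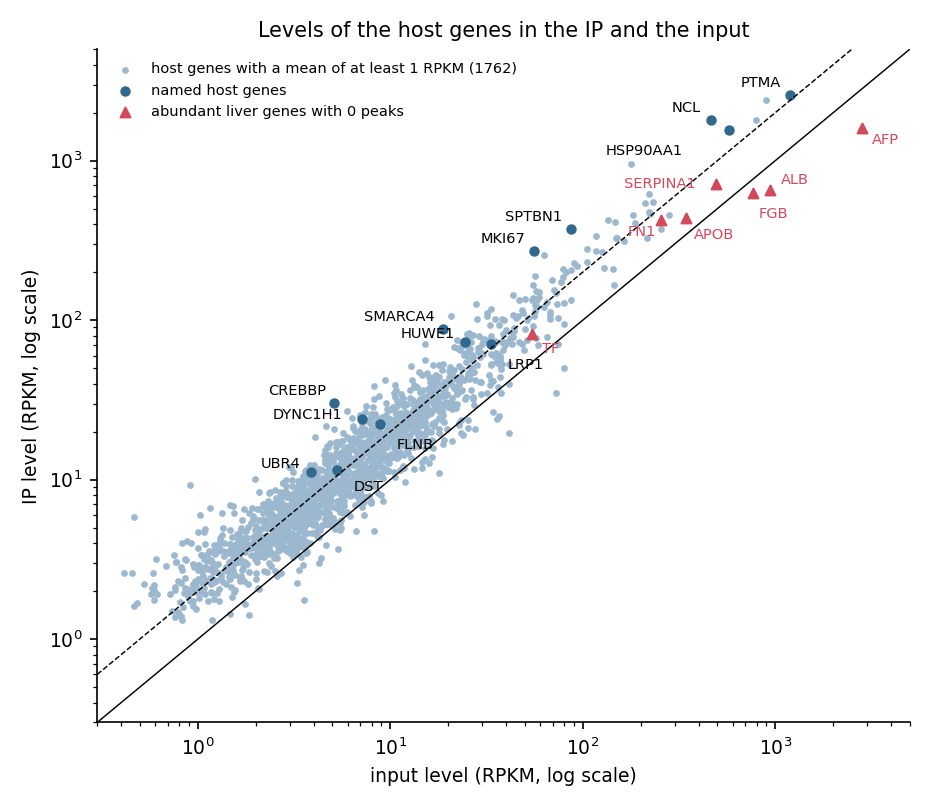
Level in the input (horizontal axis) and in the IP (vertical axis), both in RPKM on log scales, for the 1762 host genes that averaged 1 RPKM or more (pale points; 2 host genes at 0 in the input are not drawn), named host genes (dark points) and abundant liver genes without a peak (red triangles). The solid line marks equal levels and the dashed line 2-fold higher in the IP; MKI67 and SPTBN1 lie above the dashed line, and AFP and ALB below the solid one.

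Whether a gene hosted a member went with its depth, its number of exons and its ratio. The rule asks for an inner centre and 2 or more merged exons, so the number of exons enters by construction. Peaks and gene ratios come from the same reads, so the rise with the ratio is partly built in too. Of 10773 genes that averaged 1 RPKM or more and had 3 or more merged exons, 1764 (16.4%) were hosts. The share was 0.182% under 50 IP reads, 15.1% at 100 to 249 reads, 42.9% from 1000 to below 2500 reads and 39.9% at 2500 reads or more. By log2 ratio it was 2.05% from -0.5 to 0, 37.3% from 0.5 to 1, 62.3% from 1 to below 1.5 and 53.9% above, so it was not highest in the top bin of either. It was 2.40% in genes of 3 to 5 merged exons, 19.0% at 11 to 20 and 60.3% at 41 or more. With at least 1000 IP reads, hosts were 30 of 318 genes with 3 to 10 exons (9.43%) and 133 of 327 with 11 to 20 (40.7%). They were 187 of 263 genes with 21 to 40 exons (71.1%) and 56 of 62 with 41 or more (90.3%). Host genes had a median of 19 merged exons and 444 IP reads, against 11 exons and 141 reads over the 10773 genes. Over all genes tested, with those of fewer exons, the medians were 8 exons and 100 reads. The gene lists below differ in all of these, and their part in the shares was not tested. In each list, hosts are counted among its possible host genes, which meet both conditions. Higher and lower genes (by 2-fold or more) are counted among all its genes that averaged 1 RPKM or more. Over all 14057 genes at that level, 11.3% were higher and 8.25% lower. Over the 10773 possible host genes these shares were 8.40 and 4.43%.

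Chromatin regulators had the highest share of hosts among 24 gene lists. Of 42 such genes 37 were hosts (88.1%), with 170 members, and 25 were higher by 2-fold or more and 0 lower. Over all genes 11.3% were higher and 8.25% lower. The list median was 1.17 on the log2 scale, beside 0.14 over all genes. SMARCA4, the ATPase of SWI/SNF remodelling complexes, had 11 members touching 80.0% of its 50 merged exons, at 88.1 and 18.7 RPKM (ratio 4.71, 4.38 to 5.07), and shares exon bases with another gene. KMT2E, a protein of the MLL family, had 9 members and a ratio of 3.01 (2.72 to 3.34). EP300 and TRRAP also had 9 members each, with fewer IP reads than KMT2E. The list had a median of 32.5 merged exons.

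Cytoskeletal and motor genes followed. Hosts were 18 of 21 motor heavy chains (85.7%, 63 members, 7 genes higher and 0 lower) and 15 of 19 cytoskeletal linkers and spectrins (78.9%, 103 members, 10 higher and 0 lower), with 1 more host below 1 RPKM. MYH9, the heavy chain of nonmuscle myosin IIA, had 11 members of 17 peaks with folds of 2.08 to 2.86, at 338 and 117 RPKM (ratio 2.89, 2.78 to 3.01). Beside 4.43% lower over all possible host genes, 0 lower in lists of this size says little about them. The share of higher genes over all possible host genes was 8.40%. The median number of merged exons was 40 and 51 in these lists.

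Genes of RNA production and processing varied. Of 31 spliceosome genes 19 were hosts (61.3%, 49 members), with a median of 17 merged exons. Of 32 genes 9 were higher, beside 11.3% over all genes. PRPF6 and PRPF8, proteins of the U4/U6.U5 and U5 particles, had 6 members each and ratios of 2.68 (2.38 to 3.03) and 2.11 (1.85 to 2.41). Of 35 RNA-binding proteins and helicases 14 were hosts, among them UPF1, the helicase of nonsense-mediated decay, with 6 members and a ratio of 2.89 (2.48 to 3.39), and CNOT1, the scaffold of the CCR4-NOT deadenylase, with 5 members and 1.45 (1.26 to 1.68). In the transcription list 9 of 20 were hosts (45.0%). SUPT6H, an elongation factor and histone chaperone, had 10 members and a ratio of 2.36 (2.14 to 2.61), and POLR2A, the catalytic subunit of the polymerase that makes mRNA, had 4 members and 5.09 (4.63 to 5.60).

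SRSF7, SRSF3 and YTHDF2 carried no member. SRSF7 itself had 0 peaks over 9 merged exons with 807 IP and 343 input reads, a ratio of 1.11 (0.977 to 1.26). SRSF3, its closest relative in the family, had 0 peaks and a ratio of 0.725. YTHDF2 had 1 peak, within 1 exon, and a ratio of 1.23 (0.942 to 1.62). The mRNA level of the protein in the IP does not check which protein was pulled down.

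Translation and protein handling lay in between. Of 23 translation factors 11 were hosts (47.8%, 32 members; of 24 measured at this level 7 were higher and 1 lower), led by EIF4G1, the scaffold of the cap-binding complex, with 9 members and a ratio of 2.98 (2.82 to 3.16), and EIF4G3 with 5 members and 2.02 (1.78 to 2.31). Aminoacyl-tRNA synthetases had 8 hosts of 20, with 5 members in VARS1, the valine enzyme (ratio 2.85, 2.38 to 3.44), and 2 in AARS1, the alanine enzyme (2.01, 1.82 to 2.22). Giant ubiquitin ligases had 15 hosts of 25 (66 members), of which HUWE1 and UBR4 hold 35 together. Of 27 chaperones 7 were hosts (25.9%) and of 21 proteasome genes 6 (28.6%), the latter with 7 members, 0 genes higher and 2 lower. PSMD2, a scaffold of the proteasome base, had 2 members and a ratio of 1.61, and PSMC3, an ATPase of the base, had 1 member and 1.46 (1.36 to 1.58).

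Membrane traffic, signalling and cell division were mixed. In the secretory and coat list 18 of 35 were hosts (51.4%, 60 members), led by GOLGA3, a golgin, with 8 members (ratio 2.62, 2.34 to 2.95; it shares exon bases with another gene) and AP3D1, a subunit of the AP-3 adaptor, with 6 (3.51, 3.26 to 3.79). Kinases and signalling scaffolds had 14 hosts of 25 (56.0%, 46 members), with 6 members each in AKAP9, a centrosomal kinase anchor, and IQGAP1, an actin scaffold. Replication and repair genes had 16 hosts of 24 (66.7%, 35 members), among them TOP2B, a topoisomerase, with 6 members and PRKDC, the kinase of end joining, with 5. Mitosis genes had 16 of 26 (61.5%, 31 members), among them SMC1A, a cohesin subunit, and CENPF, a kinetochore protein, with 4 members each. Nuclear transport and pore genes had 7 of 31 (22.6%, 10 members), with a median of 29 merged exons and 342 IP reads, and the mitosis list had 28.5 exons and 898 reads. The transport and pore list had 2 members each in TPR, a basket protein of the pore, and NUP210, a membrane nucleoporin.

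Beside the 16.4% over all possible host genes, secreted liver proteins had fewer hosts and the other lists named here more. That share is not matched to the lists for depth or exons. Possible host genes had a median of 11 merged exons and 141 IP reads, and lipid synthesis genes 17 and 732. Among secreted liver proteins 3 of 28 were hosts (10.7%, 6 members), with a median of 12 merged exons and 1658 IP reads. PLG, plasminogen, had 3 members and a ratio of 1.67 (1.28 to 2.21), and C3, the central complement protein, had 2 members and 1.66 (1.60 to 1.73). Lipid synthesis genes had 7 hosts of 25 (28.0%, 23 members), of which FASN, fatty acid synthase, held 10 at 43.1 and 16.7 RPKM (ratio 2.58, 2.33 to 2.86), and ACLY, which makes cytosolic acetyl-CoA, held 3. Lipoprotein receptors had 5 of 12 (41.7%, 20 members), 14 of them in LRP1 and 2 in LRP5, a WNT coreceptor (ratio 1.76, 1.56 to 1.98). Glycolysis and one-carbon genes had 8 of 27 (29.6%), with 2 members each in PKM, pyruvate kinase, and PFKL, the liver phosphofructokinase. Transporters had 8 of 22 (36.4%), with 2 members each in SLC39A14, a zinc and manganese importer (ratio 1.28, 1.13 to 1.46), and ABCC2, a canalicular export pump (1.57, 1.29 to 1.91). There were 8 hosts among 12 extracellular matrix genes (66.7%, 15 members), with 3 members each in COL18A1, a basement membrane collagen, and AGRN, the proteoglycan agrin.

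The lowest shares were in lists with few exons per gene. Respiratory chain genes had 2 hosts of 23 (8.70%, 2 members), UQCRC1 of complex III and SDHA of complex II, and of 25 genes 0 were higher and 7 lower by 2-fold or more, with a list median of -0.58. Ribosomal protein genes had 0 hosts of 32, at a median of 5 merged exons and 1718 IP reads, and of 37 genes 1 was higher and 9 were lower. Over all genes 11.3% were higher and 8.25% lower.

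**Figure D4:**
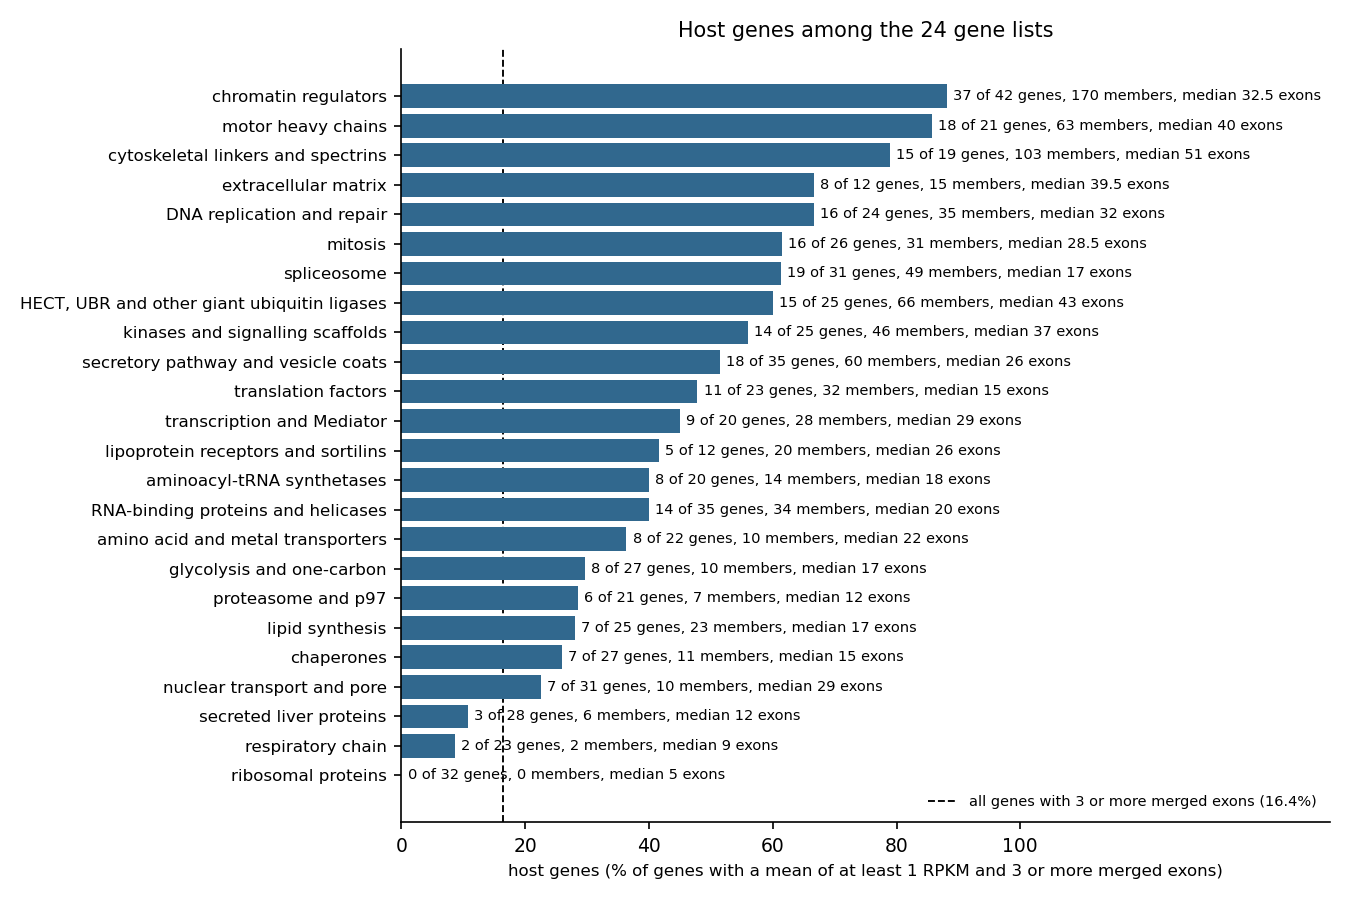
Percentage of the genes of each list that hosted a member (horizontal axis), counted over the genes that averaged 1 RPKM or more and had 3 or more merged exons. The text at each bar gives the hosts, the members and the median number of merged exons, and the dashed line the share over all such genes (16.4%). Chromatin regulators reach 88.1% and ribosomal protein genes 0.

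Most abundant genes with 11 or more merged exons were hosts, but not all of them were. The 16.4% over all possible host genes is not matched to them for depth or exons. With at least 1000 IP reads, the share of hosts was 9.43% from 3 to below 11 merged exons and 40.7% from 11 to below 21. It was 71.1% from 21 to below 41 merged exons and 90.3% at 41 or more. Of 34 genes with at least 10000 IP reads and 11 or more merged exons, 22 were hosts, 11 had 0 peaks, and APP, the amyloid precursor protein, had 2 peaks and 0 members at a ratio of 1.87. These genes are named because their values were seen. FN1, fibronectin, had 0 peaks in 41 merged exons with 43253 IP and 12217 input reads and a gene ratio of 1.67 (1.64 to 1.70). APOB, the structural protein of liver lipoproteins, had 0 peaks at a ratio of 1.27, and AFP and ALB, the serum proteins alpha-fetoprotein and albumin, had 0 peaks at 0.573 and 0.694. KRT8, NPM1, CANX, HNRNPA1, TF, COL2A1 and TPM3 were the other 7, with ratios of 0.896 to 1.63. The ratio of the 22 hosts ran from 1.51 in APLP2 to 4.85 in MKI67, so the ranges of hosts and other genes overlapped from 1.51 in APLP2 to 1.87 in APP.

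Markers of the labelled cell type and of other cells carried no peak. The 8 hepatocyte markers summed to 5737 RPKM in the IP and 6740 in the input. Fibroblast markers summed to 3.83 and 2.95 RPKM, endothelial markers to 2.98 and 3.99 with 2 of 4 at 0 in the input, immune markers to 18.7 and 26.1 with 1 of 6 at 0 in the IP, cholangiocyte markers to 89.2 and 88.8, and erythroid markers to 696 and 1054. No member lay in any of these 6 lists. They held only 8 hepatocyte, 1 fibroblast, 1 endothelial, 5 immune, 3 erythroid and 2 cholangiocyte genes that were possible hosts. Beside the 16.4% over all possible host genes, 0 hosts in lists this small says little about them.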

How the data were processed

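The data are 1 IP and 1 input RIP-seq library of Huh-7 cells, grouped by their labels. Reads carried molecular tags of 8 random bases per the labels' protocols. Trimmomatic and STAR 2.5.3a are named in the submitters' processing notes. Not given in the sources used here were the genome build, annotation, gene counter and peak caller. Gene levels are RPKM deposited by the authors, a unit inferred from the values, whose header names none. All of them were whole multiples of 1 read within 0.01 reads (100% in both libraries), which gave the depth. Of the genes with 1 to 20 IP reads 77.3% had an even number, so both mates may be counted and the intervals may be too narrow. Per the file headers, the peak table deposited by the authors gives a fold (ratio) and a p-value with a false discovery rate per peak, from 1 IP against 1 input, without replicates. The scaling of the folds was not stated.

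Coordinates are those of the files; of 19403 genes matched by symbol, 19392 overlapped their RefSeq GRCh38.p14 locus. Exons were merged per gene, so merged lengths exceed those of 1 mRNA, and peaks were placed with Python 3.11.15, pandas 2.3.3 and numpy 2.4.6; scipy 1.17.1 gave the intervals. Ties went to the gene with more IP reads. On simulated data with known answers the placement was tested and the reads were recovered. Gene ratios are IP over input RPKM with exact 95% binomial intervals; log2 values use a pseudocount of 1 and a mean of at least 1 RPKM. Genes that share exon bases with another gene on their strand are named as such; TOP2B, AGRN, SDHA, DHX30, NELFA and TF share them too.

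The members and gene lists were chosen with earlier results of these data known. Named are the 12 members with the smallest p-values, the 10 highest folds at or below the median p-value, the 6 with most exons (ties to more exonic bases), the members of the 6 genes with most members, in each list the 2 hosts with most members (ties to more IP reads), and SRSF7, SRSF3 and YTHDF2; BAZ2B, DOT1L, MPRIP, EP300, TRRAP, the other abundant genes, FN1, APOB, AFP, ALB and the microRNAs were chosen after their values were seen. No peak sequence is printed, since no genome sequence was used here. No count model was fitted. Alternatives were other overlap minimums, peak thresholds, pseudocounts, filters and scalings.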

Additional observations from a re-analysis of the deposited data

How the results depend on the processing

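No paired analysis was possible because each group has 1 library, and for the same reason no replicate could be left out. Stricter peak thresholds changed the number of members most: 2266 of the 3449 had a false discovery rate of at most 0.05 and 1209 a fold of at least 3. At the former the median fold was 2.61, the median number of merged exons 3 and the median exonic length 301 bases. Asking for at least 10 or 25 bases in each of 2 exons left 3219 and 2745 members. Genes sharing no exon bases held 2937, giving ties to the gene with fewer IP reads gave 3448, and 3 alternatives chosen after seeing the data gave 3426 without peaks over the RefSeq start or end, 3431 with exons joined across gaps under 60 bases and 3366 without folds above 20. The median log2 ratio of host genes, 0.80, became 0.87 and 0.94 with pseudocounts of 0.5 and 0.1, 0.66 when centred on the median of all genes and 0.49 when scaled to protein-coding reads. The number of host genes at least 2-fold higher in the IP, 550, was 202 under that last scaling and 381 to 792 under the others. The host median stayed above 0 under every setting. The median of all genes went from 0.14 to -0.17 under the protein-coding scaling. Higher genes fell from 57.9% of all calls past 2-fold to 44.6% when centred on the median and 29.4% under the protein-coding scaling. A count was taken as moved beyond 1.5 times, and a median outside its 95% interval over members or genes. That interval served only as a yardstick, since members and genes are not replicates. The peak table gives no reads per peak, so the depth behind a single fold is unknown, and folds above 20 all fell on multiples of 2.12, the ratio of IP to input reads.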

Other observations

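The share of possible host genes that carried a member differed along the chromosomes, from 9.68% on chromosome 18 to 24.1% on chromosome 22. Chromosome 19 had 315 members and hosts among 22.8% of its possible host genes. No test of these shares was run.

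Members crossed very long introns in 7 cases, with an intron of more than 100000 bases inside the peak. At the other end, all introns of 18 members (0.522%) were shorter than 60 bases. Peaks over a RefSeq gene start numbered 19 (0.551%) and over a gene end 4.

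A2M, the protease inhibitor alpha-2-macroglobulin, was chosen here after its value was seen. It had 1 member, over 2 of its 39 merged exons, with a fold of 3.00, and stood at 76.8 RPKM in the IP and 57.1 in the input (ratio 1.34, 1.25 to 1.45). B4GALT2, a galactosyltransferase, and FUOM, a fucose mutarotase, were the 2 host genes listed at 0 reads in the input, with 84 and 24 reads in the IP.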
